A study of Mus musculus with 15 samples.

Results

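The comparison of 5EL with EL thalamus asked what the amyloid transgenes changed in tissue of mice that make human APOE4 and keep Lilrb4a. It held 8 of the 15 bulk RNA-seq libraries of the series, 5 labelled 5EL and 3 labelled EL, with the groups taken from the genotype in each label. 5EL mice carry the 5xFAD transgenes and a human APOE4 knock-in. EL mice carry the same knock-in without 5xFAD. Both groups were sampled at an age of 4.5 months, were perfused with PBS, and gave snap-frozen thalamus from the right hemisphere. The 5ELKO (n = 4) and ELKO (n = 3) libraries, in which Lilrb4a was deleted, were used only to ask whether a difference was particular to mice with Lilrb4a. 5xFAD drives its mutant human transgenes, APP among them, from the Thy1 promoter, so they are made by neurons. By its genotype label every mouse carried human APOE4, so nothing here separates APOE4 from other APOE forms. A library that goes against its label is described below. Each library listed 29659 genes. Tests covered 15759 of them, those whose deposited log2 value reached 3.32 (a linear value of 10) in 3 or more of the 8.

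5xFAD mice lay down amyloid-β plaques early in life. Around plaques, microglia take on a disease-associated state, known as DAM, in which TREM2 and its adaptor TYROBP lead to higher levels of lysosomal, lipid-handling and cell-surface genes and to lower levels of homeostatic genes such as P2ry12 and Tmem119. Astrocytes near plaques become reactive and make more of the intermediate filament protein GFAP. Lilrb4a encodes a microglial receptor with inhibitory signaling motifs, and the thalamus is built mainly of excitatory relay neurons with a surrounding sheet of GABAergic reticular neurons.

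Lilrb4a itself was low in every library. It read 2.66, 2.40, 2.48, 2.63 and 2.48 in 5EL libraries 1 to 5, and 2.34, 2.42 and 2.38 in EL libraries 1 to 3, below the limit for testing. The 7 libraries labelled as lacking it lay at 2.33, under each of the 8 with it. Mouse Apoe, which the knock-in replaces, lay between 5.92 and 6.37 in the 8 libraries but at 10.90 in the library labelled ELKO 1, against 5.95 to 6.32 in the other 6 libraries without Lilrb4a. That library goes against its label. List medians, overall counts and some genes that rest on it are given with and without it. Other genes, and the intervals of the interaction, are given with it only. Mouse App (difference of 5EL minus EL of -0.01) and Thy1 (-0.05) did not pass any threshold, and human transgene reads were not measured separately.

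Defining markers of each cell class were present in all 8 libraries, among them P2ry12 and Tmem119 of microglia, Slc1a2 and Aqp4 of astrocytes, Snap25 and Rbfox3 of neurons, and the thalamic genes Tcf7l2, Prkcd and Rora. No pair among the 28 library pairs was identical, and their correlations ran from 0.991 to 0.999. Some libraries stood apart. EL 3 lay at 19.2 on the first principal component (60.4% of the variance of the 500 most variable genes), against -8.70 to 3.12 in the others, and its mean level of 9 habenula genes was 7.38, against 7.90 to 9.36 elsewhere. 5EL 1 lay at 11.6 on the second component (20.5%), against -3.77 to 0.85, with choroid plexus genes at a mean of 8.04, against 5.86 to 6.38. The mean level of 22 hepatocyte genes was 4.91 in EL 1 and 4.20 to 4.34 in the other libraries. The mean of 3 erythroid genes was 5.90 in EL 2 and 6.93 in EL 3, against 4.97 to 5.32 in the rest. Counts below are therefore given also without EL 3, EL 1 or 5EL 1 for the lists that moved most. The deposited values carry no counts, so no counting error can be attached to a value, and read totals that the study lists for the 5EL libraries were not used here. The study describes the 5EL samples as taken from mice chosen at random, but the labels do not say that the EL libraries came from separate animals, so p-values measure the spread between these libraries.

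No gene passed an adjusted p of 0.05 in limma (0% of 15759 in either direction). The smallest limma adjusted p was 0.218, shared by Gfap, Serpina3n, Abca1 and Zbtb16, and the next was 0.72. At an unadjusted p under 0.05, 468 genes were higher and 448 lower in 5EL, together 5.81% of those tested. Without the limit on low values 2 genes were higher and 2 lower at an adjusted p under 0.05, and with library weights estimated from the data 155 and 133. An exploratory threshold that the study used, an unadjusted p under 0.05 with a change of more than 1.2-fold (0.263 in log2), was passed by 176 genes that were higher (1.12%) and 117 that were lower (0.742%). These counts turned on single EL libraries, with 66 and 32 without EL 3, and 931 and 549 without EL 1. List counts given below without EL 3 or EL 1 are to be read beside these numbers, each out of 15759 genes. The shares of 1.12% and 0.742% hold only for all 8 libraries. The gene lists below were chosen with earlier results of these data known. Their shares beside those of all genes are therefore a description only. Below, "rose" and "fell" refer to this threshold, at which single genes are not corrected for the number tested. The lowest 5EL library lay above the highest EL library in 264 genes (1.68%), and the reverse held in 251 (1.59%).

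The microglial lists held the largest number of genes that rose. They were also the longest, and take in lysosomal, lipid-handling and proliferation lists that are not particular to microglia. Over all microglial lists, 36 of 244 genes tested rose (14.8%, against 1.12% of all genes) and 3 fell. Among 45 DAM genes, 41 were tested, and of these 17 rose (41.5%, against 1.12% of all genes) and 2 fell. The median difference of the 41 was 0.21, against 0.0006 over all genes, and 34 were positive. In a bulk sample, more microglia and more RNA per microglial cell cannot be told apart. The 4 DAM genes below the limit for testing were Ccl4, Lilrb4a, Ch25h and Atp6v0d2.

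Cst7 (chr2:150570415-150578944 on GRCm38, plus strand), which encodes the protease inhibitor cystatin F, showed the largest DAM change. Its log2 values were 6.80, 5.68, 6.14, 6.59 and 6.59 in 5EL 1 to 5 and 5.31, 5.38 and 5.34 in EL 1 to 3. The groups did not overlap, and the spread was larger within 5EL (SD 0.447, against 0.0345 in EL). Low genes are tight in the deposited values, and the part of this in the small EL spread was not tested. The difference was 1.02 ± 0.21 (SE), or 2.03-fold, with a nominal p of 0.000674 and a limma adjusted p of 0.72. Itgax, the CD11c integrin chain, read 5.99, 4.98, 5.29, 5.73 and 5.98 in 5EL and 4.94, 4.90 and 4.89 in EL, a difference of 0.68 ± 0.21. Its lowest 5EL library, 5EL 2, exceeded the highest EL library only narrowly. Clec7a, the β-glucan receptor dectin-1, read 5.20, 4.90, 4.97, 5.47 and 5.17 in 5EL and 4.61, 4.65 and 4.63 in EL, a difference of 0.52 ± 0.11. All 3 of these genes were at their lowest 5EL value in 5EL 2.

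Trem2 (chr17:48346401-48354147, plus strand), the lipid-sensing receptor of the DAM state, read 8.43, 7.89, 8.23, 8.42 and 8.47 in 5EL and 7.71, 7.74 and 8.04 in EL. Here EL 3 lay above 5EL 2, and the difference of 0.46 ± 0.13 passed at a nominal p of 0.00675. Its adaptor Tyrobp rose by 0.48 ± 0.15 with the same overlap, and without EL 2 it did not pass. Cd68, a lysosomal membrane protein of phagocytes, read 7.22, 6.76, 7.0, 7.37 and 7.21 in 5EL and 6.60, 6.54 and 6.69 in EL, with no overlap and a difference of 0.50 ± 0.12.

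Among the other DAM genes that rose were the secreted or lysosomal proteins Ctsd (cathepsin D, 0.40 ± 0.10), Ctsz (cathepsin Z, 0.44 ± 0.11) and Lyz2 (lysozyme, 0.40 ± 0.13), the transmembrane glycoprotein Gpnmb (0.41 ± 0.11), the galectin-binding protein Lgals3bp (0.45 ± 0.12), the chemokine Ccl6 (0.48 ± 0.14), lipoprotein lipase Lpl (0.45 ± 0.14) and osteopontin Spp1 (0.35 ± 0.14). Each 5EL library lay above each EL library in 13 of the 41 DAM genes, against 1.68% of all genes. The 2 that fell were Igf1 and Cox6a2. Igf1, a growth factor that DAM but also other brain cells make, read 8.78, 8.15, 8.60, 8.42 and 8.53 in 5EL and 8.90, 8.79 and 9.08 in EL, all 5EL libraries below all EL libraries, and fell by 0.43 ± 0.13 on the log2 scale. Cox6a2, a subunit of cytochrome oxidase, differed by -0.37 ± 0.13.

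The mean level of the 41 DAM genes was 8.63, 8.37, 8.51, 8.61 and 8.59 in 5EL and 8.29, 8.29 and 8.35 in EL. 5EL 2 was the lowest 5EL library and still lay above EL 3. The count of DAM genes that rose was 16 without EL 3, 19 without EL 1, 15 without 5EL 1, and 14 without both 5EL 1 and EL 3, with medians of 0.19 in each of these.

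**Figure D1:**
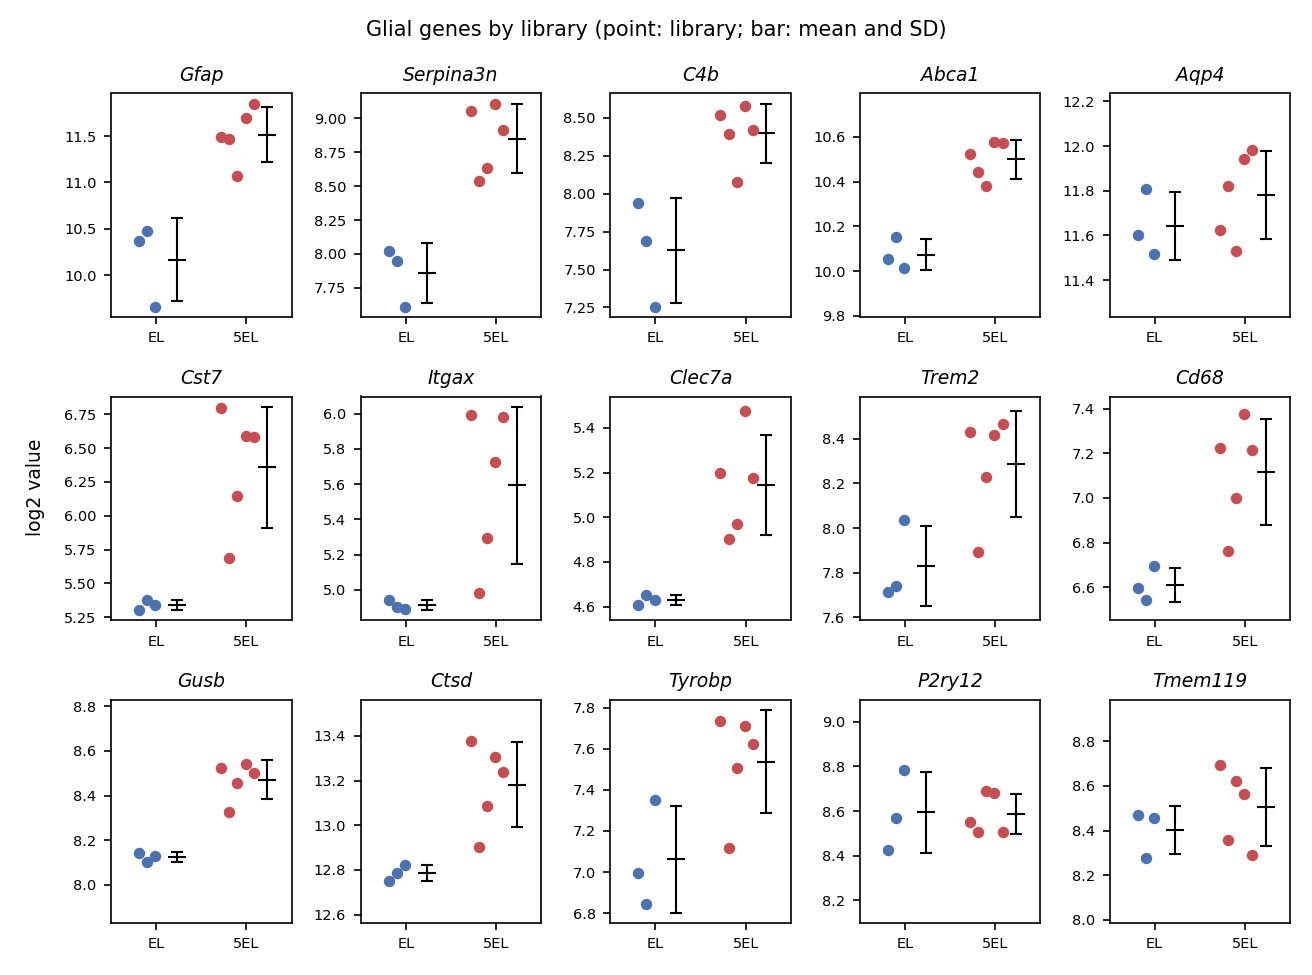
Log2 values of 15 astrocytic and microglial genes in the 5 5EL and 3 EL libraries, 1 point per library, with the group mean and SD. Gfap, Serpina3n, C4b, Abca1, Cst7, Itgax, Clec7a, Cd68, Gusb and Ctsd show no overlap between the groups. Trem2 and Tyrobp overlap at EL 3, and P2ry12, Tmem119 and Aqp4 did not pass the exploratory threshold.

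Promoter sequences are shown for 5 of the genes that rose, because these held a searched motif, as did the potassium channel gene Kcnj2 (an E-box match 84 bases before the start, not shown), and span the roles of phagocytosis (Cd68, Ctsd), adhesion (Itgax), complement sensing (C3ar1) and cholesterol export (Abca1). The windows are the 250 bases before the RefSeq start on GRCm38.p6, printed 5′ to 3′ on the strand of the gene. The 3 motifs, chosen after the values were seen and searched on both strands, were the AP-1 site TGAGTCA, the E-box CACGTG read by TFEB and related factors, and the STAT spacing TTCNNNGAA. They occur in 1466 (4.46%), 1978 (6.02%) and 2306 (7.02%) of 32851 windows. Of the 30 genes that rose among the DAM, disease-associated astrocyte, complement and lysosome lists with Abca1, 22 had a window, and 3 of these held an AP-1 match, 3 an E-box match and 0 a STAT match. Capitals mark the match, which stands 149 and 24 bases before the start in Cd68 (chr11:69666171-69666420, minus strand), 56 in Itgax (chr7:128129300-128129549, plus strand), 22 in C3ar1 (chr6:122856158-122856407, minus strand, as the reverse complement), 245 and 98 in Ctsd (chr7:142387828-142388077, minus strand) and 147 in Abca1 (chr4:53159896-53160145, minus strand).
Cd68: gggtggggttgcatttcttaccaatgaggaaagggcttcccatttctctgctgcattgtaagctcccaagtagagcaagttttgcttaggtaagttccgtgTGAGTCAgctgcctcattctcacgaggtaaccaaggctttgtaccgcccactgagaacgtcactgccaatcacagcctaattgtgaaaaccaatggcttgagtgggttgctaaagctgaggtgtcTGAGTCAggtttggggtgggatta
Itgax: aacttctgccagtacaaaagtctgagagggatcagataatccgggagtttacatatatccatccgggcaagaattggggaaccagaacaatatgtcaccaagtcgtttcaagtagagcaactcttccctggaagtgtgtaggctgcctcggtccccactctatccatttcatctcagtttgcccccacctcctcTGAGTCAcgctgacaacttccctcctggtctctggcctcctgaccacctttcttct
C3ar1: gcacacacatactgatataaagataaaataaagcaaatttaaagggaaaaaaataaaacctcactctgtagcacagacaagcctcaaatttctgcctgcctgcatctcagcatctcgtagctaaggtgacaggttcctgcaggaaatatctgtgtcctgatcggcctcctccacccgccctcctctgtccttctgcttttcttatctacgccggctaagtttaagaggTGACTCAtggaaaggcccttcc
Ctsd: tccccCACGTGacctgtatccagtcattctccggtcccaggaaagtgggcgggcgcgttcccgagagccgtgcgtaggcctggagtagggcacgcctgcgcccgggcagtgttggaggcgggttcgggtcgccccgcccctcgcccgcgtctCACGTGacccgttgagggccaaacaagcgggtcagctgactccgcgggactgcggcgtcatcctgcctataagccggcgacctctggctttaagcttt
Abca1: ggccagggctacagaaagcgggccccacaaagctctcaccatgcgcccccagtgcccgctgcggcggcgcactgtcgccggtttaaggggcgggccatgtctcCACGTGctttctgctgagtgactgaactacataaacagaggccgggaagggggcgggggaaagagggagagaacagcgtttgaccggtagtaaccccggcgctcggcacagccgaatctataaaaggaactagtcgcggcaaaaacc
These are letter matches in a fixed window and not measured binding.

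Complement genes moved in the same direction. Of 18 tested, 8 rose (44.4%, against 1.12% of all genes) and 0 fell, with a median difference of 0.18. All 3 chains of C1q, the recognition molecule of the classical pathway, rose: C1qa by 0.36 ± 0.12, C1qb by 0.33 ± 0.11 and C1qc by 0.34 ± 0.12. In each of them EL 3 was the highest EL library and exceeded 5EL 2, and C1qa did not pass without EL 1. C4b, the next step of that pathway, read 8.52, 8.40, 8.08, 8.58 and 8.42 in 5EL and 7.94, 7.69 and 7.25 in EL, with no overlap and a difference of 0.77 ± 0.15. The receptor C3ar1 rose by 0.34 ± 0.09, and the integrin chains Itgax and Itgb2 (0.27 ± 0.11), which make up complement receptors, rose as well. C3, the central component, differed by 0.07 ± 0.12 and did not pass. Without EL 1 the number that rose was 4 and without EL 3 it was 9.

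Fc receptor and ITAM signaling is the tyrosine-based pathway that TREM2 and its adaptor use. Of 24 of its genes tested, 5 rose (20.8%, against 1.12% of all genes) and 0 fell. They were Trem2, Tyrobp, Clec7a, the inhibitory Fc receptor Fcgr2b (0.36 ± 0.12) and Inpp5d (0.29 ± 0.08), a phosphatase that limits such signaling. Activating and inhibitory members stood side by side among them. Of 25 general myeloid genes 9 rose (36%) and 0 fell, and 24 were positive. The number that rose was 4 without EL 1.

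Of 48 lysosomal genes 7 rose (14.6%, against 1.12% of all genes) and 0 fell, the median was 0.10, and 39 were positive. Gusb, the lysosomal β-glucuronidase, showed the smallest p of them, with 8.52, 8.33, 8.46, 8.54 and 8.50 in 5EL against 8.14, 8.10 and 8.13 in EL, a difference of 0.35 ± 0.07 (limma adjusted p = 0.72). Ctsb, cathepsin B, was separate between the groups, but its difference of 0.17 ± 0.06 lay under the fold limit. Without EL 1, 11 lysosomal genes rose and 1 fell.

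The homeostatic microglial genes did not move opposite to the DAM genes. Of 25 tested, 4 rose (16%, against 1.12% of all genes) and 0 fell, and the median was 0.08. Among those that rose were the CSF1 receptor Csf1r (0.27 ± 0.07) and the Fc-receptor-like gene Fcrls (0.49 ± 0.15). P2ry12, the purinergic receptor of resting microglia, differed by -0.01 with a 95% interval from -0.20 to 0.19, Tmem119 by 0.10 (-0.12 to 0.33) and the fractalkine receptor Cx3cr1 by 0.13 (-0.07 to 0.32). None of these 3 passed, and the intervals of Tmem119 and Cx3cr1 reached past the fold limit. Csf1r lay close to that limit and did not pass in 8 of 20 alternative analyses, among them the one without EL 3. Without EL 3, 2 homeostatic genes rose.

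Fewer genes passed in other immune lists than in the DAM list, a contrast that was not tested. The shares that rose were 9.52% of antigen presentation, 8.70% of Toll-like receptor and 11.8% of lipid-handling genes, against 1.12% of all genes. Each of these shares rests on 2 genes. None of 27 interferon-stimulated genes and none of 15 proliferation genes rose or fell, with medians of 0.08 and 0.00. Of 21 antigen presentation genes, 2 rose, the class II invariant chain Cd74 (0.35 ± 0.11) and tapasin Tapbp (0.29 ± 0.10), and Cd74 did not pass without EL 3. Of 23 genes of the Toll-like receptor pathway, Cd14 (0.43 ± 0.11) and Tlr7 (0.31 ± 0.10) rose and Il18 (-0.28 ± 0.07), a cytokine, fell, though no gene of this list fell without EL 3. The cytokine genes Il1b, Tnf and Ccl2 were under the limit for testing. Of 17 lipid-handling genes, Lpl and Abca1 rose, though Lpl did not pass with 5EL 1 and EL 3 left out. Without EL 1, 4 genes of this list rose and 1 fell. Abca1, which loads cholesterol onto apolipoprotein E, read 10.52, 10.44, 10.38, 10.58 and 10.57 in 5EL and 10.06, 10.15 and 10.01 in EL, with a difference of 0.43 ± 0.06 and a limma adjusted p of 0.218.

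**Figure D2:**
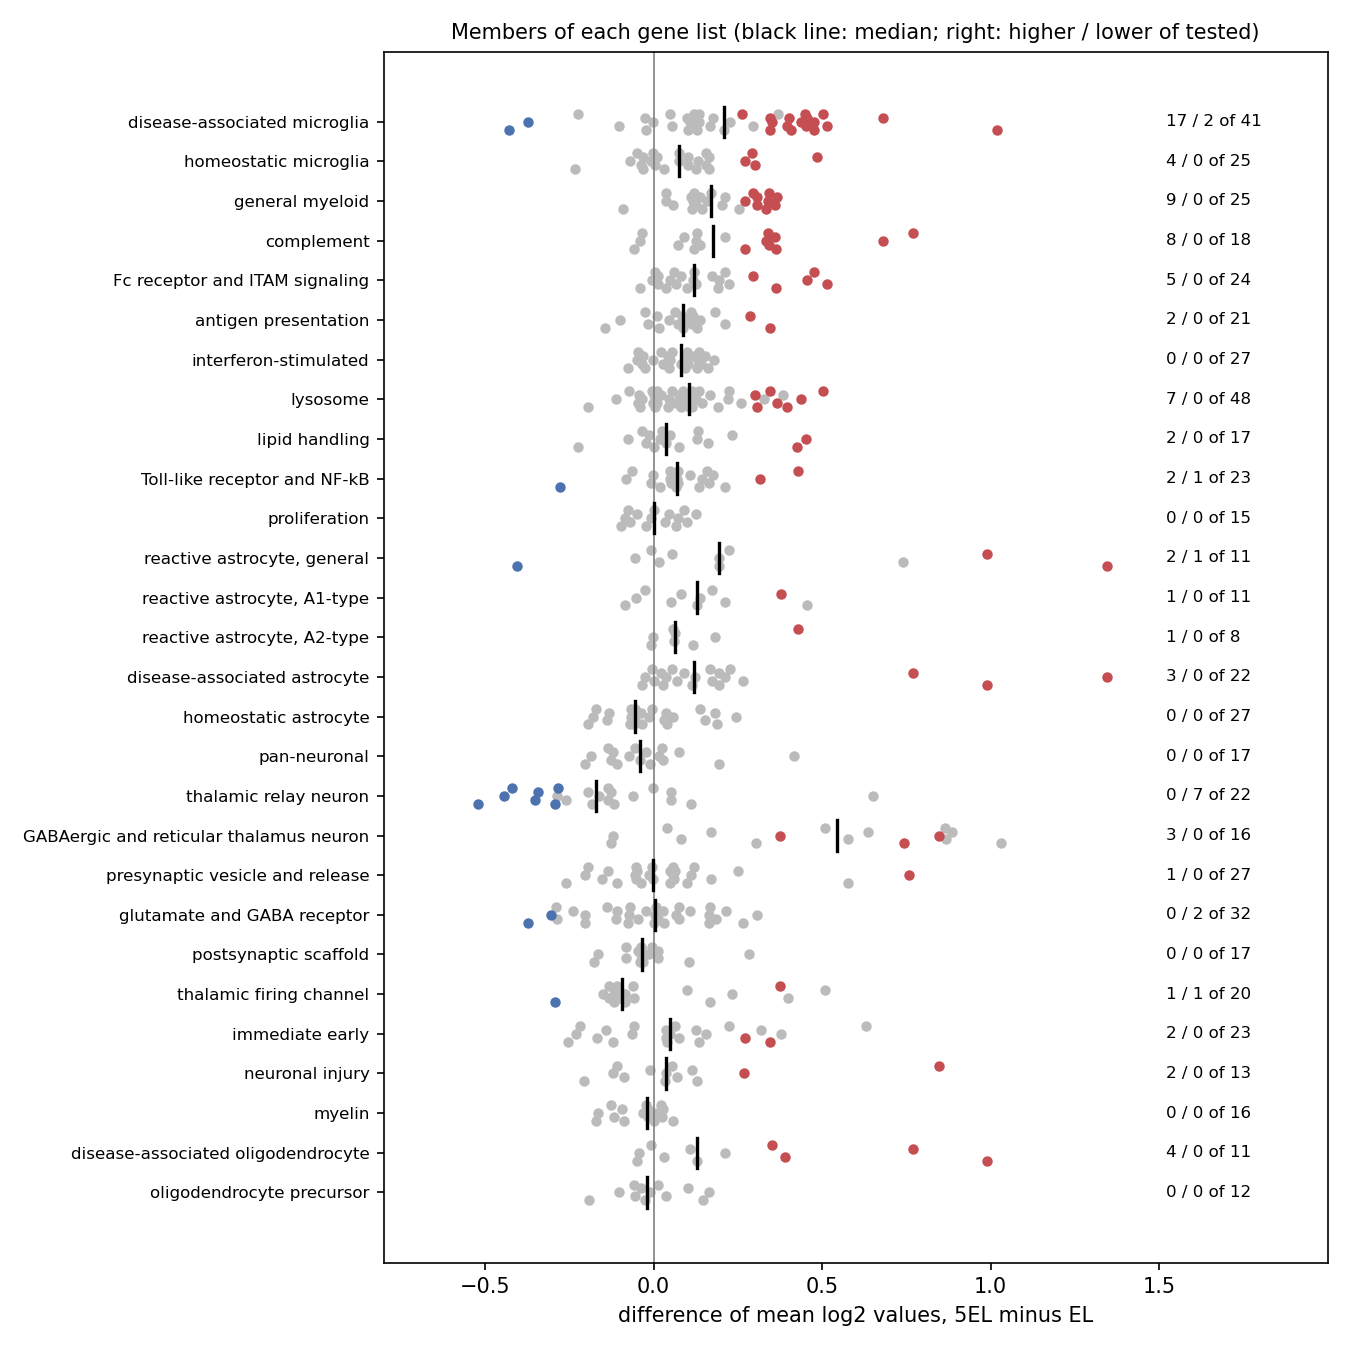
Difference of 5EL minus EL in log2 for each tested member of 28 gene lists, 1 point per gene, with the list median as a black line and the numbers that rose and fell at the exploratory threshold at the right. Disease-associated microglia (17 higher, 2 lower), general myeloid (9 and 0) and complement genes (8 and 0) lie mostly to the right of 0, thalamic relay genes (0 and 7) mostly to the left, and GABAergic genes spread widely.

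In the astrocytic lists, a few genes passed the threshold and most did not, which does not show that the others were unchanged. Over all these lists, 5 of 74 genes tested rose (6.76%, against 1.12% of all genes) and 1 fell (1.35%, against 0.742%). Bulk tissue does not place these changes in astrocytes, and lists of other cell types or responses hold some of the same genes. Gfap (chr11:102887336-102900912, minus strand) read 11.49, 11.47, 11.06, 11.70 and 11.85 in 5EL and 10.36, 10.48 and 9.66 in EL. The lowest 5EL library exceeded the highest EL library, and the difference of 1.35 ± 0.20 (2.54-fold, 95% interval 0.89 to 1.80 in log2) was the largest among all genes whose groups did not overlap. Serpina3n (chr12:104406729-104414329, plus strand), a secreted serine protease inhibitor, read 9.05, 8.54, 8.63, 9.11 and 8.92 in 5EL and 8.02, 7.95 and 7.61 in EL, a difference of 0.99 ± 0.15 (1.98-fold). For both genes the limma adjusted p was 0.218. Serpina3n and C4b have close paralogs and Lyz2 another copy, with which reads could be shared in the counting.

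Of 22 disease-associated astrocyte genes 3 rose (13.6%, against 1.12% of all genes), namely Gfap, Serpina3n and C4b. None fell, and 19 were positive, with a median of 0.12. The mean level of the 22 was 9.99, 9.95, 9.95, 10.06 and 10.04 in 5EL and 9.78, 9.83 and 9.71 in EL, so the groups did not overlap. Vim, the intermediate filament partner of Gfap, differed by 0.19 ± 0.08 and Clu, the apolipoprotein clusterin, by 0.21 ± 0.06, both under the fold limit. Among the general reactive genes Cd44, the hyaluronan receptor, fell by 0.40 ± 0.15 on the log2 scale. Its EL values were 7.32, 7.26 and 7.98, and without EL 3 no general reactive gene fell.

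Lcn2, the lipocalin of acute reactive astrocytes, was uneven. It read 4.86, 4.75, 4.96, 6.68 and 6.51 in 5EL and 4.76, 4.82 and 4.86 in EL. Only 5EL 4 and 5EL 5 stood above the EL range by more than 1 log2 unit, and the difference of 0.74 ± 0.44 did not pass (limma adjusted p = 0.72). Of the 11 A1-type genes 1 rose, the chaperone Fkbp5 (0.38 ± 0.11), and of the 8 A2-type genes 1 rose, Cd14.

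Genes of astrocyte upkeep showed no call with all 8 libraries. Of 27 homeostatic astrocyte genes 0 rose and 0 fell, with a median of -0.05 and 18 negative, and without EL 1, 3 rose and 1 fell. The glutamate transporter Slc1a2 differed by -0.07 (95% interval -0.29 to 0.15), the water channel Aqp4 by 0.14 (-0.11 to 0.39), the potassium channel Kcnj10 by 0.03 (-0.14 to 0.20) and the folate enzyme Aldh1l1 by -0.13 (-0.27 to 0.00). No end of these intervals lies further than 0.39 from 0.

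**Figure D3:**
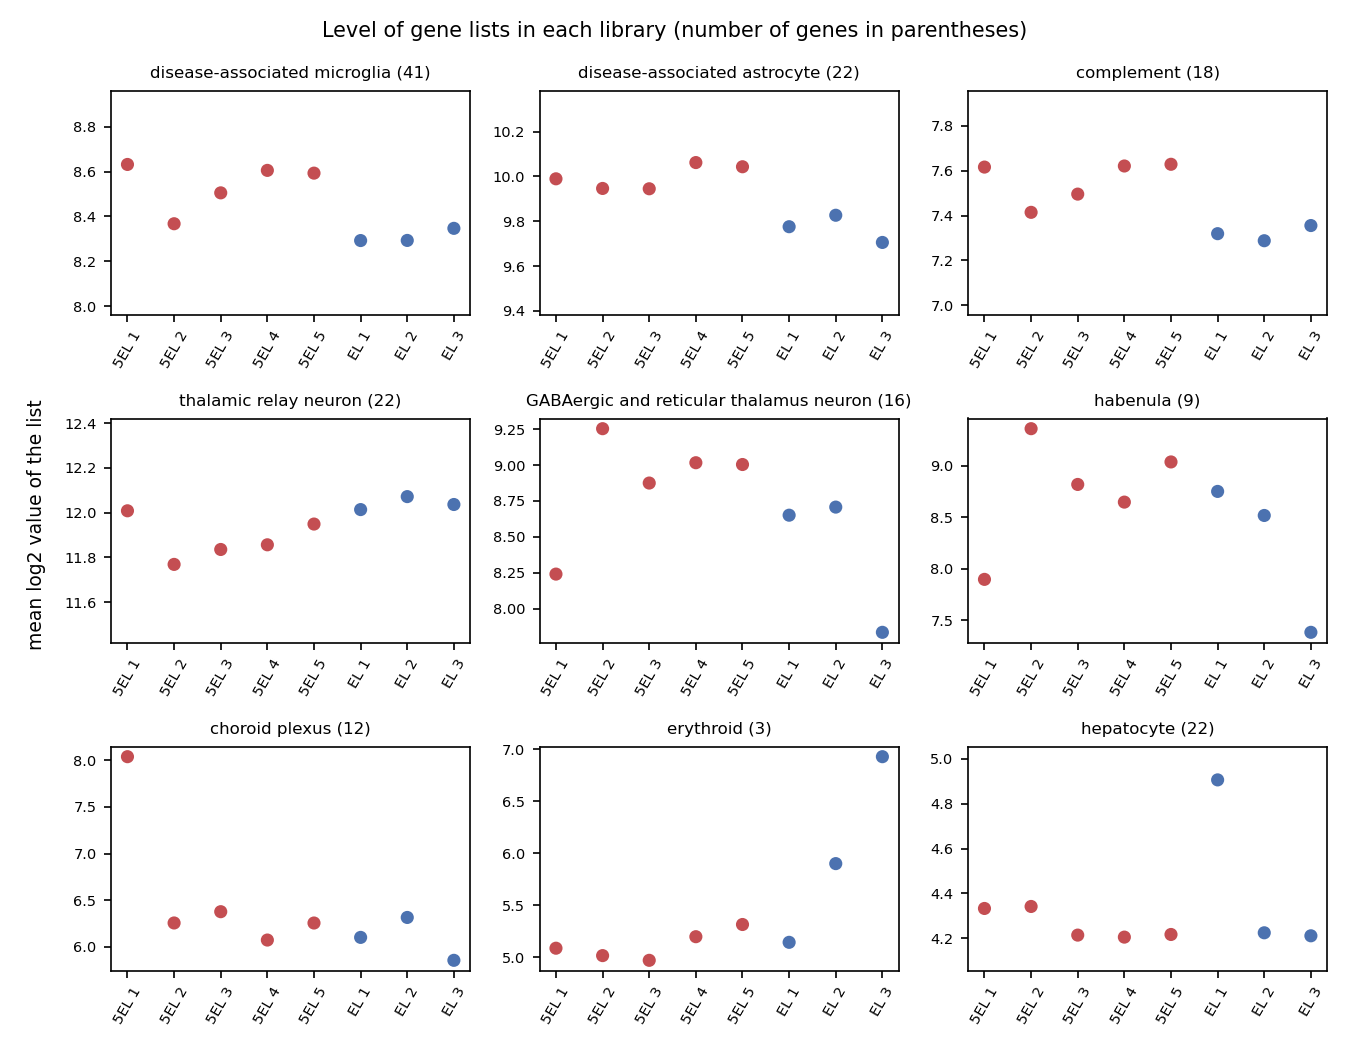
Mean log2 level of the tested members of 9 gene lists in each of the 8 libraries. Disease-associated microglia, complement and disease-associated astrocyte lists are higher in all 5 5EL libraries than in the 3 EL libraries, whereas habenula and GABAergic levels are lowest in EL 3 and 5EL 1, and the choroid plexus level is highest in 5EL 1.

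In the neuronal lists, calls went both ways with all 8 libraries, and many of them rested on EL 3, as given list by list below. Over all these lists, 7 of 174 genes tested rose (4.02%, against 1.12% of all genes) and 9 fell (5.17%, against 0.742%). Of 17 pan-neuronal genes 0 rose and 0 fell, with a median of -0.04, and without EL 1, 2 rose and 2 fell. Snap25, a protein of vesicle fusion, differed by -0.20 ± 0.10 (limma adjusted p = 0.72) and Rbfox3, which encodes the neuronal marker NeuN, by -0.01 ± 0.06.

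Of 22 thalamic relay neuron genes 7 fell (31.8%, against 0.742% of all genes), 0 rose, and the median was -0.17. Kcnc2, a fast potassium channel, read 12.86, 12.87, 12.81, 13.01 and 13.05 in 5EL and 12.99, 13.29 and 13.36 in EL, so only EL 1 lay within the 5EL range, and the difference was -0.29 ± 0.09. Prkcd, a protein kinase C form that marks relay neurons, read 13.70, 13.22, 13.39, 13.85 and 13.83 in 5EL and 13.63, 14.01 and 14.72 in EL, a difference of -0.52 ± 0.23. The 3 EL libraries ranged wider than the 5 5EL libraries, and Prkcd did not pass without EL 3 or in 9 other alternative analyses of 20. The others that fell were the transcription factors Lef1 (-0.42 ± 0.15) and Rora (-0.28 ± 0.12), the receptor accessory protein Ramp3 (-0.44 ± 0.17), the G-protein regulator Rgs16 (-0.34 ± 0.14) and the troponin Tnnt1 (-0.35 ± 0.15).

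These calls turned on EL 3. Without EL 1, 9 of the 22 relay genes fell and 1 rose. Without EL 3, 0 of the 22 fell at the threshold, though the median stayed at -0.17 and 21 were negative. Without both 5EL 1 and EL 3, 1 fell, 22 were negative and the median was -0.20. The mean level of the relay genes was 12.01, 11.77, 11.84, 11.86 and 11.95 in 5EL and 12.01, 12.07 and 12.04 in EL, with 5EL 1 just below the lowest EL library. Levels of erythroid and habenula genes differed between the same libraries (5.15, 5.90 and 6.93, and 8.75, 8.52 and 7.38, in EL 1 to 3), and the part of the erythroid genes was not tested. With the habenula level as a covariate, chosen after seeing the data, the relay median was -0.13.

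GABAergic and reticular neuron genes pointed the other way but were scattered. Of 16 tested 3 rose (18.8%, against 1.12% of all genes) and 0 fell, with a median of 0.54. Gad2, an enzyme of GABA synthesis, read 10.01, 11.74, 10.91, 11.47 and 11.35 in 5EL and 10.84, 10.70 and 8.65 in EL. Libraries 5EL 1 and EL 3 were the lowest of their groups, and the difference of 1.03 ± 0.51 did not pass (limma adjusted p = 0.72). Gad1 (0.87 ± 0.59) and the vesicular transporter Slc32a1 (0.89 ± 0.45) followed the same libraries and did not pass either. Dlx1, a transcription factor of forebrain GABAergic neurons, read 5.77, 7.09, 6.76, 6.52 and 6.49 in 5EL and 5.97, 5.82 and 5.56 in EL and rose by 0.74 ± 0.24. The peptidase Ecel1 (0.85 ± 0.34) and the T-type calcium channel Cacna1h (0.37 ± 0.13) also rose.

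The mean level of the 16 GABAergic genes was 8.24, 9.25, 8.87, 9.02 and 9.0 in 5EL and 8.65, 8.71 and 7.83 in EL, and that of the 9 habenula genes was 7.90, 9.36, 8.82, 8.65 and 9.04 against 8.75, 8.52 and 7.38. Both were lowest in EL 3 and next lowest in 5EL 1. Without EL 3 the median of the GABAergic genes was 0.17 with 1 that rose, without 5EL 1 the number was 9, and without both it was 7 with a median of 0.39. The median of the habenula genes went from 0.62 to 0.09 without EL 3. With the habenula level as a covariate the median of the GABAergic genes was 0.077.

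**Figure D4:**
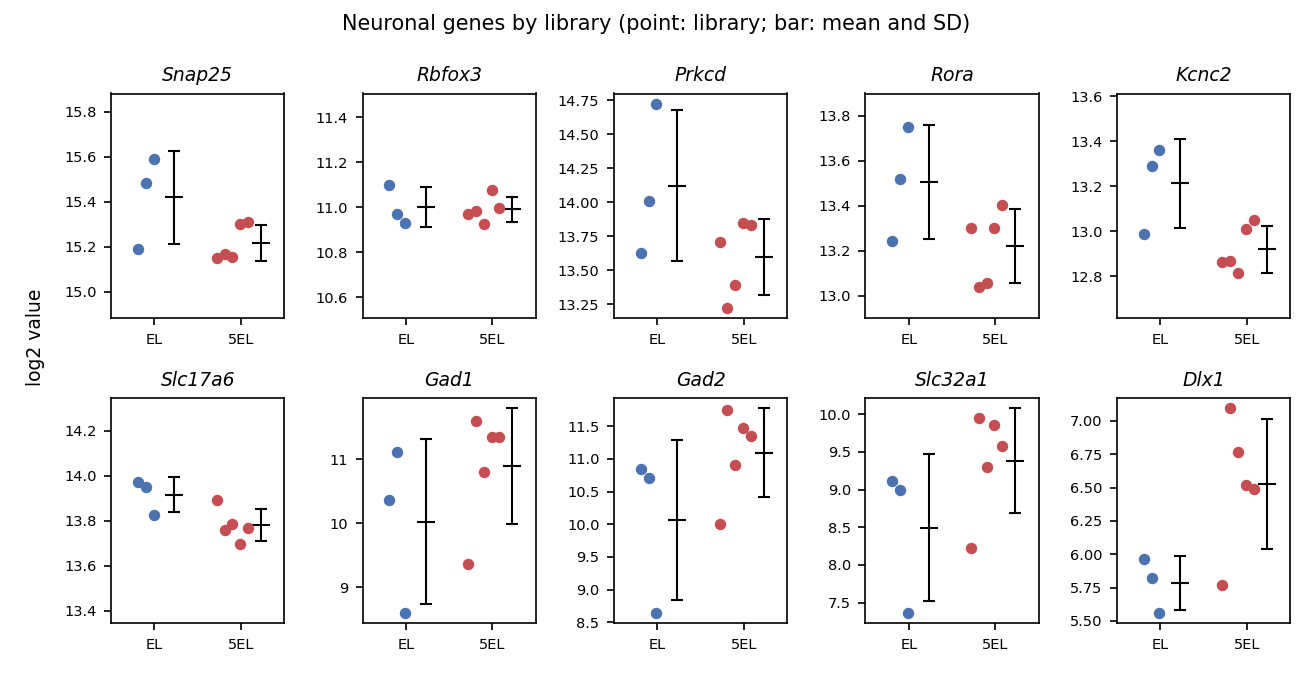
Log2 values of 10 neuronal genes in the 5 5EL and 3 EL libraries, 1 point per library, with the group mean and SD. Snap25 and Rbfox3 overlap, Prkcd, Rora and Kcnc2 are highest in EL 3, and Gad1, Gad2 and Slc32a1 are lowest in EL 3 and 5EL 1.

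Few synaptic genes passed with all 8 libraries. Of 27 presynaptic genes 1 rose, the vesicle protein Sv2c (0.76 ± 0.30), with a median of 0.00. Without EL 3 none rose, and without EL 1, 3 rose and 3 fell. Of 32 glutamate and GABA receptor genes 2 fell, the GABA-A subunit Gabra4 (-0.37 ± 0.12) among them. Without EL 3 none of the 32 fell. Without EL 1, 6 rose and 7 fell, where 931 and 549 of all 15759 genes did. None of 17 postsynaptic scaffold genes passed, and without EL 1, 1 rose and 1 fell. Of 23 immediate early genes 2 rose, Junb (0.34 ± 0.11) and Btg2 (0.27 ± 0.11). Without EL 3 none of these genes rose and 2 fell, so the direction of the list turned with that library, and Fos and Arc did not pass with all 8 libraries (0.12 ± 0.22 and 0.23 ± 0.16). Of 13 neuronal injury genes, Ecel1 and Lifr, a receptor of the LIF cytokine family that glia express as well, rose. Lifr differed by 0.27 ± 0.06 without overlap, but without EL 3 no injury gene rose.

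In oligodendrocytes, 0 of 16 myelin genes and 0 of 12 precursor genes rose or fell, and Mbp differed by -0.02 ± 0.12. The direction of the myelin genes turned with single EL libraries, with 13 of 16 positive and a median of 0.05 without EL 3, and 15 negative, 2 of which fell, and a median of -0.13 without EL 1. Of 11 disease-associated oligodendrocyte genes 4 rose (36.4%, against 1.12% of all genes). They were Serpina3n and C4b, which the astrocyte lists hold too, the lipid droplet protein Plin4 (0.35 ± 0.14) and the cell cycle inhibitor Cdkn1a (0.39 ± 0.15). Without EL 1, 2 rose.

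The genes with the smallest nominal p, used because none passed the adjusted threshold, added to these lists. Zbtb16 (chr9:48654297-48836222, minus strand), a zinc finger transcription factor, read 9.12, 8.84, 9.07, 8.82 and 8.69 in 5EL and 8.05, 8.27 and 7.78 in EL, a difference of 0.87 ± 0.13 (limma adjusted p = 0.218). Sh2b2, an adaptor of receptor signaling, rose by 0.43 ± 0.08, and Slc25a13, a mitochondrial carrier, by 0.31 ± 0.07. Among those that fell, B3galt2, a galactosyltransferase, read 9.56, 9.43, 9.50, 9.69 and 9.73 in 5EL and 9.82, 10.02 and 10.23 in EL (-0.44 ± 0.10). The other genes with the smallest p that fell were Mansc1 (-0.30), Rsad1 (-0.28), Gm8104 (-0.30), Gm16867 (-0.34), the orphan receptor Gpr149 (-0.43) and the Wnt receptor Fzd10 (-0.34) with its neighbour 5930412G12Rik (-0.30). Without EL 3, Mansc1, Rsad1, Gm8104 and Gm16867 did not pass. Fzd10 and 5930412G12Rik lie next to each other on chromosome 5 and were counted without strand, so their reads may not be separable at the borders. Vegfa, the vascular growth factor, was lower in each 5EL library, but its difference of -0.22 ± 0.05, like that of Gm26645 (-0.23), lay under the fold limit. Iyd (-0.54 ± 0.16), Xylt2 (-0.46 ± 0.12) and Ift57 (-0.43 ± 0.12) showed, with B3galt2 and Igf1, the largest decreases without overlap, and EL 3 was the highest library in all 5. Ift57 did not pass without it.

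Mice lacking Lilrb4a showed amyloid differences of the same direction in most of the glial genes that rose. Gfap differed by 0.81 ± 0.32 between 5ELKO and ELKO (1.07 ± 0.35 without the library labelled ELKO 1), Serpina3n by 0.70 ± 0.26 (0.84 ± 0.30), C4b by 0.65 ± 0.19 (0.77 ± 0.22), Cst7 by 0.78 ± 0.28 (0.92 ± 0.32) and Trem2 by 0.58 ± 0.21 (0.63 ± 0.24). Abca1 depended more on that library, going from 0.15 ± 0.13 to 0.37 ± 0.10 without it. Other genes with the smallest nominal p are given with ELKO 1 only, so how far their size or sign rests on that library is not shown. Gpr149 differed by -0.15, 5930412G12Rik by -0.08, Mansc1 by -0.02, B3galt2 by -0.01, and Rsad1 and Gm8104 by -0.002 each. Sh2b2 (-0.03), Slc25a13 (-0.04) and Fzd10 (0.20) had the opposite sign to their differences of 5EL minus EL. The 41 DAM genes had a median of 0.11 with 37 positive (32 without ELKO 1, with the median again 0.11), the 22 relay genes a median of -0.02 with 5 positive (-0.01 with 10 positive without ELKO 1) and the 16 GABAergic genes one of 0.42 (0.51). No gene passed an adjusted p of 0.05 in limma for 5ELKO against ELKO. Of the 176 genes that rose in 5EL, 130 were positive there (145 without ELKO 1, against 49.7% and 50.2% of all genes), and of the 117 that fell, 84 were negative (93 without ELKO 1, against 50.3% and 49.8%).

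**Figure D5:**
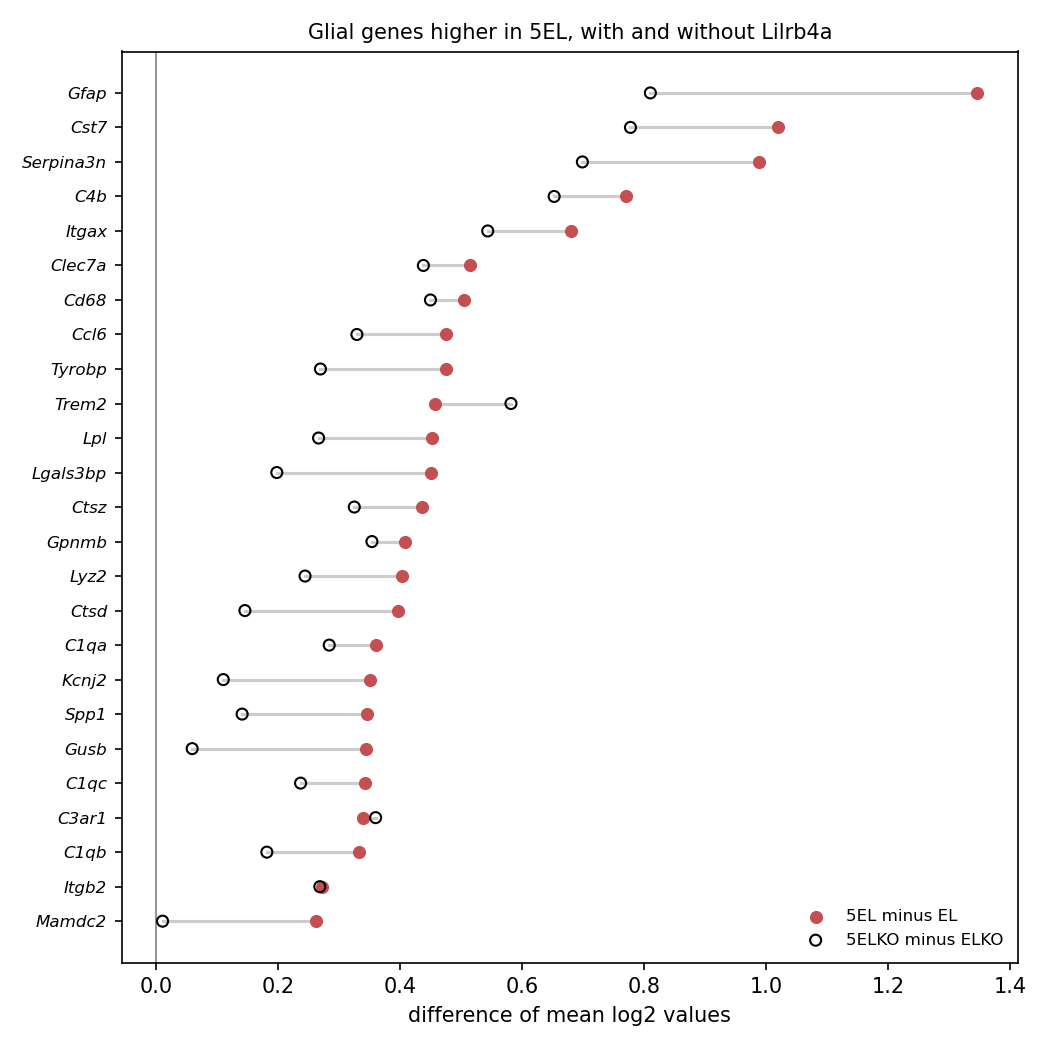
Difference in log2 of 25 of the 26 genes that rose in the disease-associated microglia, disease-associated astrocyte and complement lists, as 5EL minus EL (filled points) and as 5ELKO minus ELKO (open points, all 7 libraries). Over all 26, 25 were positive without Lilrb4a as well, and because the genes were chosen by their 5EL minus EL difference, nothing is read from which point of a pair is larger.

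The difference between the 2 amyloid differences was tested as an interaction over 15804 genes and all 15 libraries. None passed an adjusted p of 0.05 in limma (432 at an unadjusted p under 0.05; the smallest adjusted p was 0.9996), so no gene can be called particular to mice with Lilrb4a. For Gfap the interaction was 0.54 with a 95% interval from -0.41 to 1.48, for Cst7 0.24 (-0.59 to 1.07) and for Trem2 -0.13 (-0.73 to 0.48), intervals that include both no difference and differences as large as the amyloid change itself. Genes with an unadjusted limma interaction p under 0.05 made up a share below 0.05 of those tested. A share of 0.05 is what no interaction in any gene would give on average. Among them, given as examples only, were Fzd10 (0.000508), Igf1 (0.0144), Il18 (0.016), Mamdc2 (0.03), a DAM gene, and Gusb (0.0334). Without the library labelled ELKO 1, the unadjusted interaction p of Il18 (0.0538), Mamdc2 (0.0674) and Gusb (0.0800) was above 0.05. The amyloid difference of Igf1 was -0.43 with Lilrb4a and 0.03 without it. The limma adjusted interaction p of each of these was 0.9996.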

How the data were processed

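Poly(A) RNA of thalamic tissue was sequenced by the authors, who used Trimmomatic 0.39 for trimming and HISAT2 2.2.1 for alignment to GRCm38, counted read pairs over exons per gene name with featureCounts 2.0.3 without regard to strand, and tested with DESeq2 1.38.3. The annotation release and the transform of the deposited values are not given in the sources used here. The authors deposited log2 values for 29659 genes in each library, without counts. Low genes were tight (median SD within groups 0.00308 below a mean of 0, against 0.115 between means of 6 and 8), so differences of low genes are likely understated and no count model was run.

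The 8 libraries were grouped by the genotype in their labels. Genes at 3.32 or more in at least 3 of 8 libraries were fitted with limma 3.58.1 (lmFit, eBayes with a trend) in R 4.3.3, with Benjamini-Hochberg adjustment over the 15759 genes. The interaction was fitted on all 15 libraries. The fit was checked on simulated data with large known changes and independent noise in each gene. That check does not cover smaller differences, or shifts that many genes of a library share. Gene lists are described by counts and medians, with no set test. The members and lists were chosen with earlier results of these data known. Named were the transgene-related and landmark genes, the 10 genes of smallest p and the 5 of largest difference without overlap in each direction, with nominal p because none passed the adjusted threshold. Other members of lists were named after their values were seen. A few genes that enter the counts are not reported here. Alternatives were other filters, no trend, robust variance, library weights, centring, quantile normalization, a replicate block, covariates, a fit of all 15 libraries, and each library left out. Gene coordinates are from GENCODE M21 (15213 of the genes tested), and promoters from RefSeq on GRCm38.p6. Figures were drawn with matplotlib 3.10.9 in Python 3.11.15.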

Additional observations from a re-analysis of the deposited data

Results flagged for a closer look

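Of 79 groups of values checked, 5 held a library far from the others of its group, by the gap to its nearest neighbour as a share of the whole range of the 5 5EL libraries. By chance about 1 in 20 such groups would be marked. In 5EL 1 the mean level was the highest for the lipid-handling list (share 0.769), the choroid plexus list (0.845) and the pituitary list (0.977). C1qa was lowest in 5EL 2 (share 0.768), at 9.31 against 9.65 to 9.75 in the other 5EL libraries. Gpr149 was highest in 5EL 4 (share 0.836), at 6.63 against 6.20 to 6.27, and this library still lay below the lowest EL library, at 6.64.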

How the results depend on the processing

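At an adjusted p under 0.05 the limma counts of 0 higher and 0 lower genes became 2 and 2 with no filter on low values and 155 and 133 with array weights, and stayed at 0 in the other alternatives run. At the exploratory threshold, 176 higher genes became 319 with array weights, and 117 lower genes became 213 with the replicate number as a replicate block. Deviations of same-numbered libraries correlated at 0.0538, 0.228 and 0.189, of which the first is under 0.1, so the numbers are not read as pairs. A pair of alternatives was chosen after seeing the data. With the habenula level as a covariate 109 genes were higher and 33 lower, the median of homeostatic astrocyte genes was 0.0045 and that of GABAergic genes 0.077. With 5EL 1 and EL 3 left out together 106 were higher and 65 lower. Leaving out 1 library at a time gave 66 (without EL 3) to 931 (without EL 1) higher genes and 32 (without EL 3) to 549 (without EL 1) lower ones, with 71 lower without 5EL 2. The DAM median stayed between 0.19 and 0.23 in these. Of 34 named genes past the exploratory threshold, 20 passed it in each of 20 alternatives and 0 changed direction. The interaction count stayed at 0 in each alternative run, among them the one without ELKO 1. The files hold no counts, so no limit set by depth can be given for single values.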

Other observations

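Zbtb16 belongs to a set of genes that glucocorticoid hormones are known to raise. A list of 16 such genes was drawn up after the values were seen, so its counts are a description only. Of the 16, 6 rose (37.5%, against 1.12% of all genes) and 0 fell at the exploratory threshold, with a median of 0.06. They were Zbtb16 (0.87 ± 0.13), the chaperone Fkbp5 (0.38 ± 0.11), Cdkn1a (0.39 ± 0.15), the transcriptional repressor Bcl6 (0.36 ± 0.10), Plin4 (0.35 ± 0.14) and the hypoxia-related factor Hif3a (0.31 ± 0.07). Other well-known responders did not pass, among them Tsc22d3 (-0.05 ± 0.15), Sgk1 (0.03 ± 0.24) and Per1 (0.03 ± 0.11). Without EL 3 the number that rose was 5 and without EL 1 it was 4. Between 5ELKO and ELKO, Zbtb16 differed by 0.18 ± 0.29, and by 0.60 ± 0.24 without the library labelled ELKO 1.

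Genes of other cell types differed between single libraries. Ttr, the transthyretin gene of the choroid plexus, read 13.71 in 5EL 1 and 7.72 to 10.31 in the other 7 libraries. Alb, the albumin gene, read 8.59 in EL 1 and 5.75 to 6.55 in the others. The globin genes Hbb-bs and Hba-a1 fell by 1.23 and 1.2 on the log2 scale in 5EL, with values of 8.28 and 8.45 in EL 3, and the median of the 3 erythroid genes went from -1.2 to -0.54 without EL 3 and to -1.78 without EL 1. Mural genes of the vessel wall had a median of -0.08 with 1 of 11 that fell, and endothelial genes one of -0.04 with 0 of 13 that rose or fell.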
